A study of Mus musculus with 11 samples.

Results

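The genes Vwf, Thbd, Procr, Plat, Plau, Tfpi, F3, F5 and F8, which act in blood coagulation and fibrinolysis, were followed through the cells of the mouse cerebral cortex. They were chosen by name, as 9 of the 26921 genes in the tables of 11 libraries. Single cells were prepared from the cortex of C57BL/6 mice, female per the study's methods, with papain and Liberase, freed of myelin on an albumin gradient and captured with the 10x system. The groups were juvenile mice (postnatal day 10, 4 libraries), adult mice (7–11 weeks, 3 libraries) and aged mice (18 months, 2 libraries), all untreated, and mice of 7–11 weeks with experimental autoimmune encephalomyelitis (EAE, 2 libraries). EAE was induced with a peptide of myelin oligodendrocyte glycoprotein in Complete Freund's Adjuvant followed by pertussis toxin, and cells were taken at the peak of disease, so effects of peptide, adjuvant and toxin cannot be told apart. Tissue of 6 mice was pooled for each juvenile and adult sample and of 3 mice for each aged and EAE sample. After filters on genes and mitochondrial transcripts per cell, 50625 of 54646 barcodes were kept, of which 21123 were endothelial cells (ECs).

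Clotting starts when tissue factor, encoded by F3, meets factor VII from the blood, and it is driven by the cofactors factor V (F5) and factor VIII (F8). Von Willebrand factor (Vwf), a product of ECs and platelets, tethers platelets to injured vessels and carries factor VIII. ECs hold the cascade back with tissue factor pathway inhibitor (Tfpi), with thrombomodulin (Thbd), which turns thrombin into an activator of protein C, and with the endothelial protein C receptor (Procr). Fibrin is dissolved by plasmin, which the tissue-type (Plat) and urokinase-type (Plau) plasminogen activators release from plasminogen.

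In the GENCODE M21 annotation of GRCm38, Vwf lies at chr6:125546774-125686679, Procr at chr2:155751117-155755471, Plat at chr8:22757727-22782844, Plau at chr14:20836660-20843385, F3 at chr3:121723537-121735048 and F5 at chr1:164151838-164220277, all on the plus strand. Thbd at chr2:148404466-148408188, Tfpi at chr2:84432855-84476775 and F8 at chrX:75172715-75382615 lie on the minus strand. Values were counts of transcripts read near the 3′ end, so they belong to the whole gene and not to an exon or isoform. Sequences upstream of 4 members are shown because the results turn on contrasts between these genes: Procr and Tfpi had their highest EC levels in juvenile libraries, F5 its highest level in the choroid plexus and F3 in fibroblasts and astrocytes. Vwf, Thbd, Plat and Plau had no entry among the RefSeq sequences used. Each is 250 bases long, ends just before a transcription start of RefSeq (GRCm38.p6), and is printed 5′ to 3′ on the strand of the gene. The windows are chr2:155750967-155751216 for Procr, chr2:84476760-84477009 for 1 of 2 starts of Tfpi, chr1:164151585-164151834 for F5 and chr3:121723287-121723536 for F3. Capitals mark a GC box (GGGCGG) or an AP-1 motif (TGANTCA) on either strand.
Procr: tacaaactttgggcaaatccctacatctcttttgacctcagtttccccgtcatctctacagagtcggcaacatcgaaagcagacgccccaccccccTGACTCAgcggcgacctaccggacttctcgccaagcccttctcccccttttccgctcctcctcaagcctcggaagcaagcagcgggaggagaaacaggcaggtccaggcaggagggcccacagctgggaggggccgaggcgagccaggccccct
Tfpi: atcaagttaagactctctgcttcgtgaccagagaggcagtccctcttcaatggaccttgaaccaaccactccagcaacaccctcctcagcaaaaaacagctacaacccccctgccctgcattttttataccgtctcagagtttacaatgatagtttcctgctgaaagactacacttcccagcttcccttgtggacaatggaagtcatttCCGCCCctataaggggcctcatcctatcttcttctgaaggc
F5: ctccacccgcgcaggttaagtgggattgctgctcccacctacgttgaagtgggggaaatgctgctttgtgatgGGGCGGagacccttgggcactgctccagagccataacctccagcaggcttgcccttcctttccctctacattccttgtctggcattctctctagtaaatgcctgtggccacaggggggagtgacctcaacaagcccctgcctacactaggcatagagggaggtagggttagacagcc
F3: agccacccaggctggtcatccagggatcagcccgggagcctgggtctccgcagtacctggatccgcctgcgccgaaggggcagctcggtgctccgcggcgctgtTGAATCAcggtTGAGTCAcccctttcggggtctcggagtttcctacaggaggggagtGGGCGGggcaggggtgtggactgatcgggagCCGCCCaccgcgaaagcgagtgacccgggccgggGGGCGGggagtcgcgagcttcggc

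The F3 window held 3 GC boxes and 2 AP-1 motifs, that of Procr 1 AP-1 motif and no GC box, and those of Tfpi and F5 1 GC box each. Of 32851 upstream windows of that length, 32.7% held a GC box and 6.75% an AP-1 motif, so the GC box is a common feature and the AP-1 motif a less common one. An ETS motif (CCGGAA), present in 12% of windows, was found in none of the 4. These matches describe letters in the window and were not tied to the levels below.

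The libraries held 15755504 to 34326349 transcripts (UMIs, unique molecular identifiers), and ECs contributed 3649583 to 11125984 of them from 513 to 3654 cells. The median EC had 5025 to 8317 UMIs in juvenile libraries and 2251 to 3689 in the others. Cell types are named for clusters that carried their markers, so an EC is an EC-like cell. All 10 EC marker genes, such as Cldn5, Pecam1 and Flt1, were detected in ECs and made up 15820 to 30290 counts per 1000000 UMIs of the population (CPM). Any pair of libraries shared 13 to 125 cell barcodes, at most 1.66% of the smaller library. Replicates Adult 2 and Adult 3 differed by a chi-square per degree of freedom of 1.43 over genes of ECs, against 30.5 and 30.0 with Adult 1, and were counted as 1 unit, which left 10 units. The other neighbouring replicates gave 1.94 to 2.64 and were kept apart, although Juvenile 1 and 2 differed by 2.01 and Juvenile 3 and 4 by 2.37 while libraries of different juvenile pairs differed by 12.1 to 14.5. Whether the 4 juvenile units are independent samples is not given by the labels. With such pairs summed in every condition, the juvenile calls of Thbd, Procr, Plat and Tfpi in all ECs were kept and that of F5 was lost. Adult 1 stood apart: 80.8% of its ECs fell in clusters without a zone name, and markers of choroid plexus epithelium summed to 49880 CPM in its ECs, against 3759 to 19230 CPM in the other libraries. Mice were pooled, and nothing says that libraries of 1 group came from separate pools. P-values therefore measure the spread between libraries, which may be technical and which the model shares in part over genes.

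**Figure D1:**
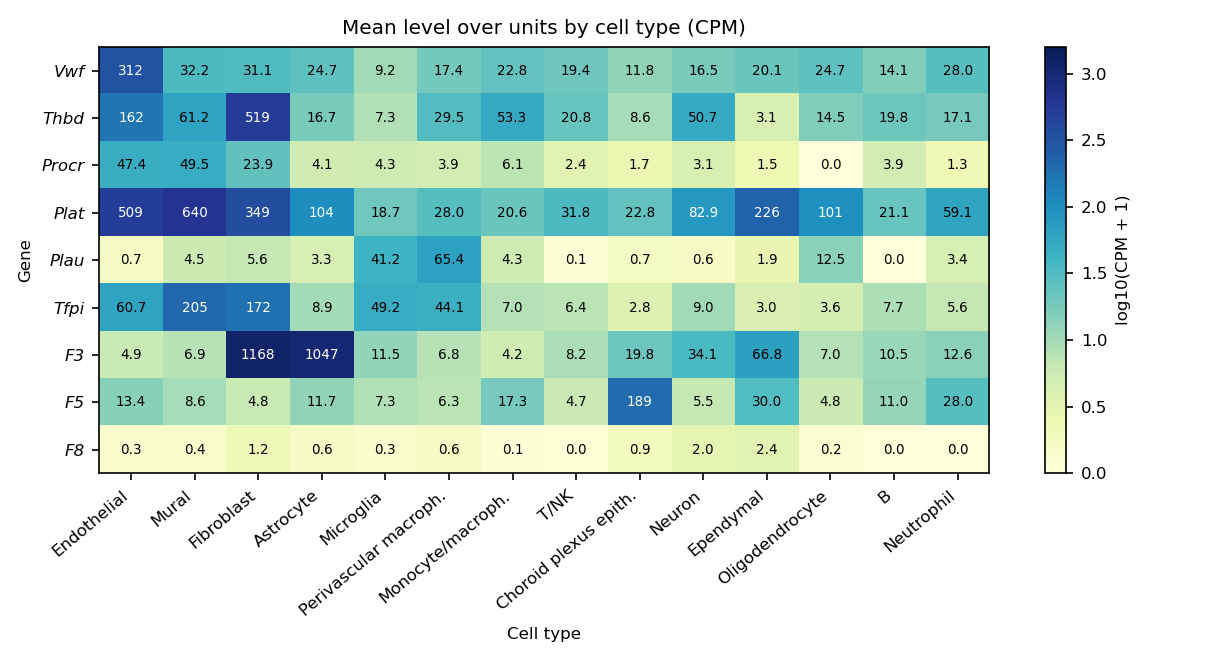
Mean level of each gene in each cell type (CPM, printed in the cell, mean over the units with at least 10 cells), coloured on a log10(CPM + 1) scale. The row of Vwf is highest in ECs, those of F3 in fibroblasts and astrocytes, that of F5 in choroid plexus epithelium and that of Plau in perivascular macrophages and microglia.

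Which cells of the cortex carried these genes? The members fell into those concentrated in ECs and those that were not, as the plot of levels by cell type shows. ECs held 92.8% of all Vwf UMIs, 83.7% of Plat, 78.1% of Procr, 72.4% of Thbd and 52.1% of Tfpi. They held 24.2% of F8, 8.16% of F5, 2.98% of F3 and 2.91% of Plau. These shares also depend on how many cells of each type were captured, so levels were compared next.

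Of the procoagulant genes only Vwf had its highest level in ECs, at 311.5 ± 213 CPM (SD, n = 10 units), and its level was higher there than in each of the 10 other cell types that could be compared (log2 fold change 3.71 to 5.07). F3, the trigger of clotting, reached 1168 ± 595 CPM in fibroblasts and 1047 ± 598 CPM in astrocytes but 4.90 ± 4.34 CPM in ECs, a log2 difference of -7.68 ± 0.31 (SE) from fibroblasts and -7.59 ± 0.31 from astrocytes. The F5 level was 189 ± 82.4 CPM in choroid plexus epithelium and 13.4 ± 8.28 CPM in ECs (log2 fold change -4.35 ± 0.21). F8 was close to absent: 31 UMIs were found in all ECs, 0 to 5 per library, and its highest mean level in any cell type was 2.38 CPM, in ependymal cells of 6 units.

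The anticoagulant genes were not limited to ECs. Thbd was higher in ECs than in 9 of the 10 other types and lower than in fibroblasts, where it stood at 519 ± 190 CPM against 162 ± 115 CPM in ECs (log2 fold change -1.91 ± 0.25). Procr stood at 47.4 ± 18.1 CPM in ECs and 49.5 ± 42.6 CPM in mural cells, and the difference over all conditions did not pass the test (log2 fold change 0.08 ± 0.27, adjusted p = 0.846, edgeR). Mural levels lay above those of ECs in juvenile libraries, at 85.5 to 118 against 61.2 to 75.3 CPM. They lay below in aged (17.0 and 12.7 against 32.1 and 33.2 CPM) and EAE libraries (11.35 and 7.52 against 34.2 and 37.4 CPM). In adult libraries the 2 cell types overlapped. Tfpi was lower in ECs (60.7 ± 41.0 CPM) than in mural cells (205 ± 64.7 CPM) and fibroblasts (172 ± 40.2 CPM), by 1.63 ± 0.18 and 1.33 ± 0.19 on the log2 scale, and its differences from microglia (0.04 ± 0.18, adjusted p = 0.845) and perivascular macrophages (PVMs; 0.21 ± 0.19, adjusted p = 0.369) did not pass. Within conditions, which were not tested apart, the microglial difference went both ways. Tfpi stood at 101 to 113 CPM in juvenile ECs and 48.0 to 64.0 CPM in juvenile microglia. In adult libraries ECs lay below microglia, at 32.3 to 40.7 against 44.75 to 54.8 CPM. They also did in aged (26.5 and 27.7 against 49.05 and 55.0 CPM) and EAE libraries (25.6 and 23.0 against 35.1 and 37.0 CPM).

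The plasminogen activators divided between cell types. Plat stood at 509 ± 248 CPM in ECs and 640 ± 301 CPM in mural cells (log2 fold change -0.08 ± 0.25, adjusted p = 0.816), and its difference from fibroblasts did not pass either (0.56 ± 0.25, adjusted p = 0.0527). Plau reached 65.4 ± 26.3 CPM in PVMs and 41.2 ± 22.8 CPM in microglia, with 51 UMIs in all ECs (log2 fold change of ECs -6.74 ± 0.26 and -5.91 ± 0.25). Against the mean of the other types, 7 of the 8 members that passed the filter on low counts were called at an adjusted p of 0.05: Vwf (4.25 ± 0.14), Plat (3.10 ± 0.15), Procr (2.83 ± 0.19), Thbd (2.46 ± 0.16), Tfpi (1.58 ± 0.14) and F5 (0.47 ± 0.17) were higher in ECs and F3 (-2.38 ± 0.26) was lower. With cells named by marker score the first 4 of these were 2.68, 2.17, 2.04 and 1.88. Of all genes tested, 59.6% were called in that comparison. The F5 call was lost under 9 of 20 alternatives, among them without Adult 2 and without Juvenile 1, Juvenile 3 or Juvenile 4. In the comparisons of ECs with 1 other type at a time, the calls took 65.4% of all genes for astrocytes, 47.4% for B cells, 73.5% for choroid plexus epithelium, 53.6% for fibroblasts, 64.4% for microglia, 60.2% for monocytes and macrophages, 48.5% for mural cells, 61.3% for neurons, 57.1% for PVMs and 56.5% for T and NK cells.

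How did these genes differ between the conditions within ECs? In EAE, Vwf was higher and Thbd lower, and both differences exceeded the spread between libraries under each of 20 alternatives. Vwf stood at 133, 200.5 and 201 CPM in the 3 adult libraries and at 712 and 697 CPM in EAE, a log2 fold change of 2.25 ± 0.26 (adjusted p = 0.000227, edgeR). Thbd stood at 298, 252 and 257 CPM in adult and at 104 and 111 CPM in EAE (-1.17 ± 0.10, adjusted p = 6.69e-06). Neither gene's EAE libraries overlapped the adult ones.

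Tfpi was also lower in EAE, with 32.3, 40.7 and 40.3 CPM in adult and 25.6 and 23.0 CPM in EAE ECs (-0.43 ± 0.13, adjusted p = 0.027), but this call was lost under 5 alternatives, among them without EAE 1 or EAE 2 and without Aged 1 or Aged 2. The 3 calls are 3 of 7 members tested, where 27.7% of all genes were called. Plat stood at 764, 503 and 489 CPM in adult and 752 and 726 CPM in EAE libraries, so the groups overlapped through Adult 1 (0.42 ± 0.17, adjusted p = 0.08). Without Adult 1 the Plat difference was 0.75 ± 0.13 and passed (adjusted p = 0.0014).

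Of the remaining members, Procr stood at 28.8, 39.3 and 36.6 CPM in adult and 34.2 and 37.4 CPM in EAE ECs (0.25 ± 0.15, adjusted p = 0.229). F3 stood at 16.4, 3.22 and 1.86 CPM in adult and 1.62 and 1.47 CPM in EAE (-2.22 ± 0.79, adjusted p = 0.0644), and F5 at 35.4, 15.03 and 14.8 CPM against 13.03 and 13.7 CPM (-0.63 ± 0.39, adjusted p = 0.263). For both genes the adult mean rested on Adult 1, and without that library the differences were -0.53 ± 0.46 for F3 and 0.02 ± 0.30 for F5. With DESeq2 and without Adult 3 the F3 difference was called. Plau and F8 did not pass the filter in ECs.

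In EAE the shares of ECs with at least 1 UMI of Vwf or of Thbd moved the same way when each cell was thinned to 1500 UMIs. They were 14.2 ± 1.91% (SD, n = 2 units) for Vwf in adult and 43.8 ± 0.24% in EAE ECs, and 26.5% and 55.0% unthinned. For Thbd they were 31.7 ± 2.38% and 13.9 ± 0.34%, and 53.9% and 23.4% unthinned. Microglia, which should lack both transcripts, gave 1.47% and 2.17% for Vwf and 1.46% and 0.49% for Thbd at the same depth. Thinning left out 4.75% to 7.48% of adult and 12.9% to 13.2% of EAE ECs and up to 46.0% of microglia, and median UMIs per library were 2251 to 8317 in ECs and 2139 to 3540 in microglia.

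**Figure D2:**
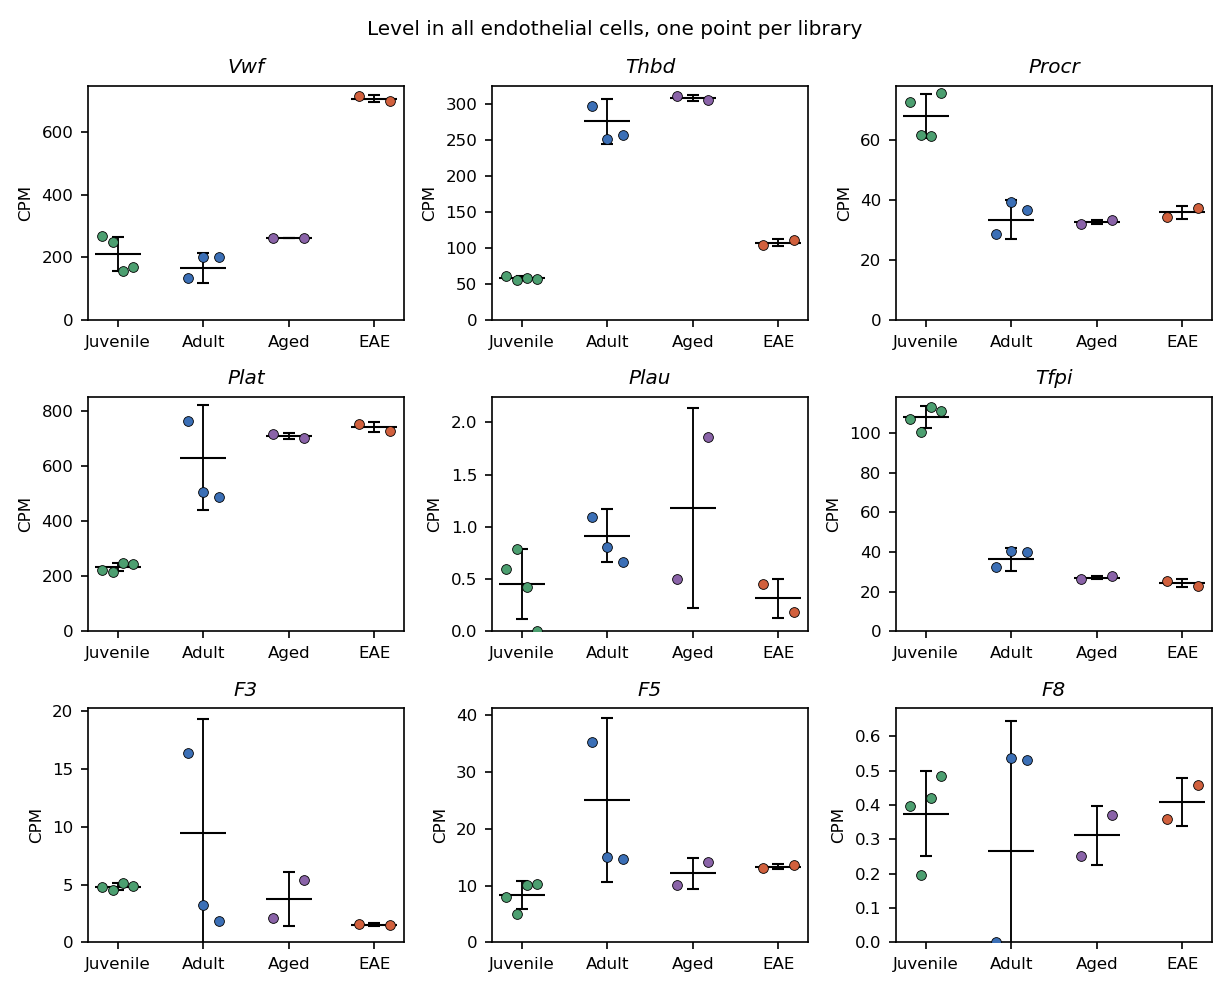
Level of each gene in all ECs (CPM, linear axis from 0), with 1 point per library, the mean over units as a long bar and the SD over units as an error bar. Vwf reaches 697 to 712 CPM in EAE, and Thbd lies at 55.7 to 61.6 CPM in juvenile libraries against 252 to 298 CPM in adult ones.

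In aged ECs none of the 7 members tested was called, where 5.57% of all genes were. edgeR gave 3 of them an unadjusted p under 0.05 (Vwf, Tfpi and F5), and DESeq2 called 0. Vwf stood at 263 CPM in both aged libraries, above the 3 adult ones (0.65 ± 0.25, adjusted p = 0.162), and Tfpi at 26.5 and 27.7 CPM, below them (-0.45 ± 0.13, adjusted p = 0.0669). Thbd, at 311 and 305 CPM, lay just above the adult libraries (0.17 ± 0.10, adjusted p = 0.333). Without Adult 1, Plat (0.52 ± 0.13, adjusted p = 0.0317) and Tfpi (-0.57 ± 0.13, adjusted p = 0.021) were called.

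In juvenile ECs 5 of the 7 members tested were called, against 43.3% of all genes. Thbd stood at 61.6, 55.7, 59.4 and 56.9 CPM in the 4 juvenile libraries, all below the adult ones (-2.16 ± 0.09, adjusted p = 4.41e-09), and Plat at 224, 216, 249 and 245 CPM, also below them (-1.35 ± 0.14, adjusted p = 1.13e-05). Tfpi and Procr went the other way. Tfpi stood at 107, 101, 113 and 111 CPM (1.61 ± 0.11, adjusted p = 4.75e-07) and Procr at 72.5, 61.7, 61.2 and 75.3 CPM (1.05 ± 0.13, adjusted p = 4.98e-05), each above all adult libraries.

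Juvenile ECs held less of the thrombomodulin transcript and more of those of its partner receptor and of tissue factor pathway inhibitor than adult ECs. F5, at 7.94, 4.94, 10.1 and 10.2 CPM, was also called lower (-1.41 ± 0.36, adjusted p = 0.0111), but without Adult 1 this was lost (-0.75 ± 0.28, adjusted p = 0.0528). Choroid plexus markers moved with it, from 18070 to 49880 CPM in adult ECs to 3759 to 8673 CPM in juvenile ECs, and their part in the F5 difference was not tested. Vwf, at 268, 249, 158 and 171 CPM, overlapped the adult range (0.39 ± 0.22, adjusted p = 0.182), and so did F3, at 4.77, 4.55, 5.19 and 4.86 CPM (-0.69 ± 0.63, adjusted p = 0.415). The comparisons of EAE, aged and juvenile ECs share the adult libraries and are not independent of each other.

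Where along the vessel did the genes lie? ECs of all conditions were clustered together, with the members and other coagulation genes left out, into arterial (741 cells), arterial capillary (CapA, 3849), venous capillary (CapV, 10079) and venous (950) zones. A cluster led by Angpt2 and Lcn2 with markers of tip and of inflammatory ECs (1335 cells), a cluster named mitotic (601), fenestrated cells (42) and unnamed cells (3526) were kept out of the zone tests. Some zone names were less clear than others. The largest CapV cluster (3936 cells) scored 0.52 for CapV markers and 0.86 for markers of T and NK cells. The largest CapA cluster (3264 cells) scored 1.31 for CapA, and its next highest zone score was arterial. With finer clustering (resolution of 0.9), a cluster of 1345 cells, also led by Gkn3 and Tmem100, was named arterial. It scored 1.41 for arterial and 1.33 for CapA. Reactive endothelial venules did not separate from the venous zone. Its leading genes included Icam1, Vcam1 and Lrg1, which the paper gives as markers of these venules. Alkbh5, a venous marker in the paper, was among the leading genes of a CapV cluster. How much of the venous zone consists of reactive venules was not determined. Adult 1 had 6 venous cells and gave no venous value, so the adult venous group was a single unit, Adult 2 and Adult 3 together, which is assumed to vary like the other groups. P-values of venous changes against adult libraries therefore hold no spread between adult venous units.

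Vwf was high at both ends of the vessel tree. It was higher in arterial than in capillary ECs in 10 of 10 units, by 2.12 ± 0.19 on the log2 scale (adjusted p = 3.08e-10, edgeR), and higher in venous ECs in 9 of 9 units, by 2.22 ± 0.19 (adjusted p = 3.05e-10). In adult libraries it stood at 1088, 903 and 876 CPM in arterial, 848 and 892 CPM in venous and 84.1 to 123 CPM in CapA and CapV ECs. Averaged over conditions, the arterial and venous levels did not differ beyond their spread (0.10 ± 0.23, adjusted p = 0.804). Venous levels lay above arterial ones in aged (1063 and 1161 against 709 and 847 CPM) and EAE libraries (1988 and 1931 against 1443 and 1660 CPM). In juvenile libraries the venous mean was lower, at 487 against 635 CPM. These differences within a condition were not tested. With cells named by marker score the arterial difference was 0.68 and still passed (adjusted p = 0.000477).

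Tfpi instead was lower on the arterial side and F5 higher on the venous side. Tfpi was lower in arterial than in capillary ECs in 10 of 10 units (-1.35 ± 0.16, adjusted p = 2.02e-09), and venous ECs did not pass the test against capillary ones (0.21 ± 0.10, adjusted p = 0.117). In EAE the zones lay close together for Tfpi, at 21.2 and 20.2 CPM in arterial and 21.6 and 22.9 CPM in CapA ECs. CapV ECs stood there at 24.9 and 22.9 CPM and venous ECs at 21.7 and 28.4 CPM. F5 was higher in venous ECs in 9 of 9 units (2.31 ± 0.17, adjusted p = 3.22e-15), with 37.7 and 49.0 CPM in adult, 44.8 and 46.1 CPM in EAE, 17.3 and 38.2 CPM in aged and 10.9 to 24.8 CPM in juvenile libraries. With cells named by marker score these differences were smaller, at -0.36 for arterial Tfpi (adjusted p = 0.0243) and 1.15 for venous F5 (adjusted p = 1.9e-06). The venous against arterial difference was 3.22 ± 0.32 for F5 and 1.55 ± 0.18 for Tfpi. Choroid plexus markers summed to 3484 to 17230 CPM in venous ECs and, in the same libraries, to 3829 to 17480 CPM in CapV ECs.

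Procr was lowest in CapV among the 4 zones. It was higher in arterial than in capillary ECs in 10 of 10 units (0.84 ± 0.13, adjusted p = 5.74e-07), higher in venous ECs in 6 of 9 (0.41 ± 0.12, adjusted p = 0.00466, a call lost without the block of units) and lower in CapV than in CapA ECs (-1.17 ± 0.11, adjusted p = 4.2e-11). Thbd varied less over all conditions: venous ECs had slightly more than capillary ECs (0.35 ± 0.09, adjusted p = 0.00271; higher in 6 of 9 units), a call lost under 3 of 20 alternatives, and arterial ECs did not pass (-0.13 ± 0.11, adjusted p = 0.348; higher in 6 of 10 units). In adult libraries, however, arterial ECs stood at 166 to 190 CPM, below CapA (291 to 323 CPM) and CapV ECs (234 to 335 CPM).

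Among the 4 zones Plat was lower in arterial (-0.56 ± 0.12, adjusted p = 0.000327) and in venous ECs (-0.82 ± 0.12, adjusted p = 2.09e-06) than in capillary ECs, in 10 of 10 and in 9 of 9 units. The arterial difference depended on how zones were drawn: it was 0.29 ± 0.11 (adjusted p = 0.064) with finer clustering and 0.34 ± 0.09 (adjusted p = 0.0132) when each cell was named by its marker score, and the call was lost without the block of units (adjusted p = 0.129). The venous call was lost with marker scores (-0.27, adjusted p = 0.0735). Of 6 members tested, 4 were called in the arterial comparison, against 35.8% of all genes, and 5 in the venous comparison, against 38.0%. Between venous and arterial ECs 4 of 6, namely Thbd, Procr, Tfpi and F5, were called, against 33.0%, and between CapV and CapA 4 of 6, against 19.5%.

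**Figure D3:**
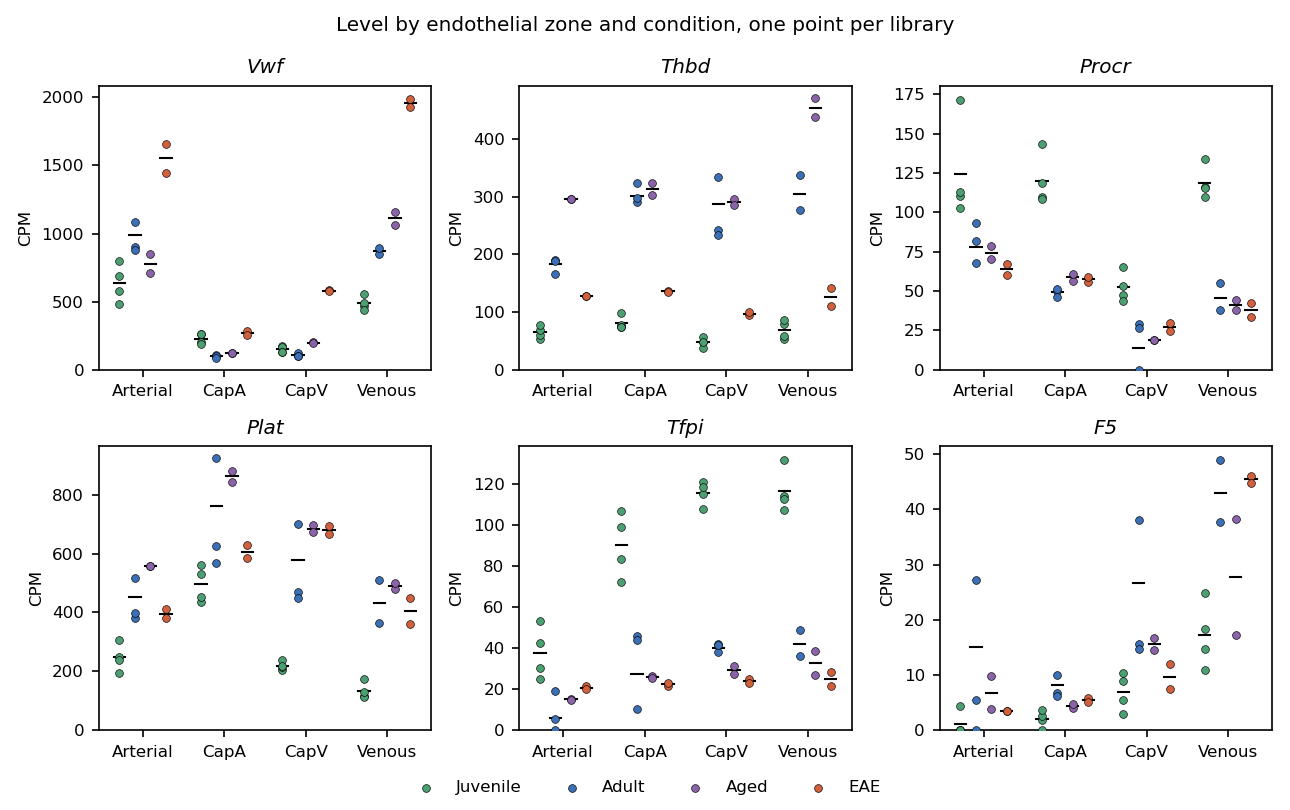
Level of 6 genes in 4 endothelial zones (CPM, linear axis from 0), with 1 point per library coloured by condition and a bar at the mean over units. Vwf is high in arterial and venous ECs in each condition, F5 in venous ECs, and the juvenile points of Procr and Tfpi lie above those of the other conditions in CapA, CapV and venous ECs.

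Did the conditions change the zones alike? In EAE, Vwf was called higher in all 4 zones, and by most in CapV, or in CapA with cells named by marker score, where the CapV difference was 1.85. There it stood at 123, 98.5 and 100.2 CPM in adult and 585 and 575 CPM in EAE libraries (2.62 ± 0.16, adjusted p = 5.51e-10). The difference was 1.64 ± 0.16 in CapA, 1.30 ± 0.15 in venous and 0.77 ± 0.21 in arterial ECs, and the arterial call was lost under 4 of 19 alternatives and was 1.66 with marker scores. Venous ECs of EAE libraries reached 1988 and 1931 CPM. The change was called smaller in venous than in capillary ECs, by 0.87 ± 0.11 on the log2 scale, in a test of the difference itself (-0.87). That test had 1 adult venous unit.

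Thbd was lower in EAE in CapA (-1.05 ± 0.14), CapV (-1.30 ± 0.16) and venous ECs (-1.14 ± 0.19), with 335, 243 and 234 CPM in adult and 94.3 and 99.8 CPM in EAE CapV ECs. In arterial ECs it stood at 190, 166 and 188 CPM against 127 and 128 CPM and did not pass (-0.42 ± 0.25, adjusted p = 0.392), but it was called lower at the finer clustering and with marker scores (-0.92, adjusted p = 0.000471, with the latter). The change of Thbd in venous minus capillary ECs was -0.04 ± 0.14 (adjusted p = 0.974), and arterial ECs did not enter that test. Tfpi was called lower in CapA (-0.85 ± 0.23) and CapV (-0.66 ± 0.15), each call being lost under 4 of 19 alternatives. In CapA the groups overlapped through Adult 1, with 10.0, 45.7 and 44.1 CPM in adult and 21.6 and 22.9 CPM in EAE libraries. Plat was called higher in CapV alone (0.46 ± 0.14, adjusted p = 0.0254), a call lost under 5 of 19 alternatives, among them without EAE 1 or EAE 2. In CapV Plat stood at 699.6, 468 and 449 CPM in adult and 665 and 693 CPM in EAE libraries, so the groups overlapped through Adult 1.

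CapV was made of 3 clusters, one led by Car4 and the interferon-response genes Ifit1 and Ifit3, one by Ttyh2 and one by Slc38a5 and Lcn2. Vwf was higher and Thbd lower in EAE than in adult libraries in each of them. In the first Vwf stood at 352 and 356 CPM in EAE and 65.9 to 126 CPM in adult libraries, in the second at 466 and 464 CPM against 24.7 to 71.7 CPM and in the third at 875 and 857 CPM against 149 to 271 CPM. Thbd stood at 78.8 to 109 CPM in EAE and 184 to 446 CPM in adult libraries over the 3 clusters.

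The EAE calls were 1 of 5 members tested in arterial ECs, against 6.78% of all genes, 3 of 6 in CapA against 20.5%, 4 of 7 in CapV against 22.1% and 2 of 6 in venous ECs against 15.1%. In the test of the difference between venous and capillary changes 2 of 8 members, Vwf and Plat (-0.39 ± 0.11, adjusted p = 0.0277), were called, against 3.31% of all genes. The call for Plat was lost or turned under 10 of 19 alternatives. The make-up of the ECs also differed: the cluster led by Angpt2 and Lcn2 held 11.9% and 11.6% of EAE ECs against 1.99% to 2.03% of adult ones, and the venous zone 5.39% and 5.38% against 0.701% to 3.76%. In Adult 1, however, 692 of 856 ECs were unnamed, 17 were in that cluster and 6 in the venous zone. Its shares of all ECs are therefore not comparable with those of the other libraries. The shares were not tested.

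In aged libraries Vwf was called higher in CapV (202 and 194 CPM, 0.94 ± 0.15, adjusted p = 0.000753) and Tfpi lower in CapA (-0.76 ± 0.23, adjusted p = 0.0286). The Vwf call was kept under each alternative run, and the Tfpi call was lost under 10 of 19. Tfpi stood at 26.5 and 25.5 CPM in aged CapA ECs, within the adult range of 10.0 to 45.7 CPM. The calls were 1 of 7 members in CapV, against 6.61% of all genes, and 1 of 6 in CapA, against 6.34%. In arterial ECs edgeR called 0 of 5 members (1.02% of all genes) and in venous ECs 0 of 6 (4.16%), with Thbd alone under an unadjusted p of 0.05 in each (1 member) and 0 called by DESeq2. The aged change in venous minus capillary ECs was called for 0 of 8 members (0.828% of all genes), with 3 under an unadjusted p of 0.05 and 0 called by DESeq2, and Vwf at -0.40 ± 0.12 (adjusted p = 0.072).

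Vwf in juvenile libraries went in opposite directions along the vessel. It was higher than in adult libraries in CapA (1.27 ± 0.16, adjusted p = 9.3e-10) and CapV (0.63 ± 0.14, adjusted p = 0.00146) and lower in arterial (-0.72 ± 0.18, adjusted p = 0.00497) and venous ECs (-0.80 ± 0.13, adjusted p = 2.96e-06). In venous ECs the juvenile libraries stood at 552, 465, 488 and 441 CPM, below both adult values, and in CapA at 265, 259, 202 and 187 CPM, above the adult range of 84.1 to 110 CPM. The change in venous minus capillary ECs was -1.87 ± 0.12 and was called, with 1 adult venous unit. When each cell was named by its marker score the arterial and venous differences turned to 1.02 ± 0.17 and 0.70 ± 0.25, and the change in venous minus capillary ECs no longer passed (-0.47, adjusted p = 0.323), so the opposite directions hold for zones drawn by clustering. The arterial call was also lost at the finer clustering and with near-identical pairs summed.

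The cluster led by Slc38a5 and Lcn2 held 41.7% to 60.5% of juvenile and 10.9% to 26.1% of adult CapV cells. Within it Vwf stood at 111 to 162 CPM in juvenile and 149 to 271 CPM in adult libraries, so the higher juvenile CapV level was not seen in that cluster. In the clusters led by Car4 and by Ttyh2 it stood at 128 to 206 CPM in juvenile and 24.7 to 126 CPM in adult libraries. These values within clusters were not tested.

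Thbd was lower in juvenile ECs of all 4 zones (-1.63 to -2.34) and Plat too, by most in venous ECs (-1.73 ± 0.17) and least in CapA (-0.42 ± 0.13, a call lost under 5 of 19 alternatives). The Plat change was called larger in venous than in capillary ECs (-1.18 ± 0.14), with 1 adult venous unit, a call lost with cells named by marker score. Procr and Tfpi were higher in CapA, CapV and venous ECs (1.14 to 1.38 and 1.10 to 1.6), and in arterial ECs they did not pass (0.37 ± 0.27, adjusted p = 0.407 and 1.62 ± 0.59, adjusted p = 0.0632). Arterial Procr was called higher at the finer clustering and with marker scores (1.82, adjusted p = 1.35e-07, with the latter), and arterial Tfpi under 5 of 17 alternatives, among them without Juvenile 2 and without Adult 2. F5 was lower in CapV (-1.10 ± 0.40, adjusted p = 0.0428) and venous ECs (-1.46 ± 0.36, adjusted p = 0.00158), the CapV call being lost without Adult 1 and under 4 other alternatives and the venous call with DESeq2 and with marker scores. Choroid plexus markers moved with both, from 16810 to 51950 CPM in adult to 3829 to 8032 CPM in juvenile CapV ECs and from 15890 and 17230 CPM to 3484 to 7680 CPM in venous ECs. Their part was not tested.

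The juvenile calls were 3 of 5 members in arterial ECs against 13.9% of all genes, 5 of 6 in CapA against 23.3%, 6 of 7 in CapV against 38.2% and 6 of 6 in venous ECs against 23.2%. In venous minus capillary ECs 2 of 8 members were called, against 4.88% of all genes. Neither Thbd (0.08 ± 0.18) nor Tfpi (0.21 ± 0.27) nor Procr (0.23 ± 0.26) was among them.

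**Figure D4:**
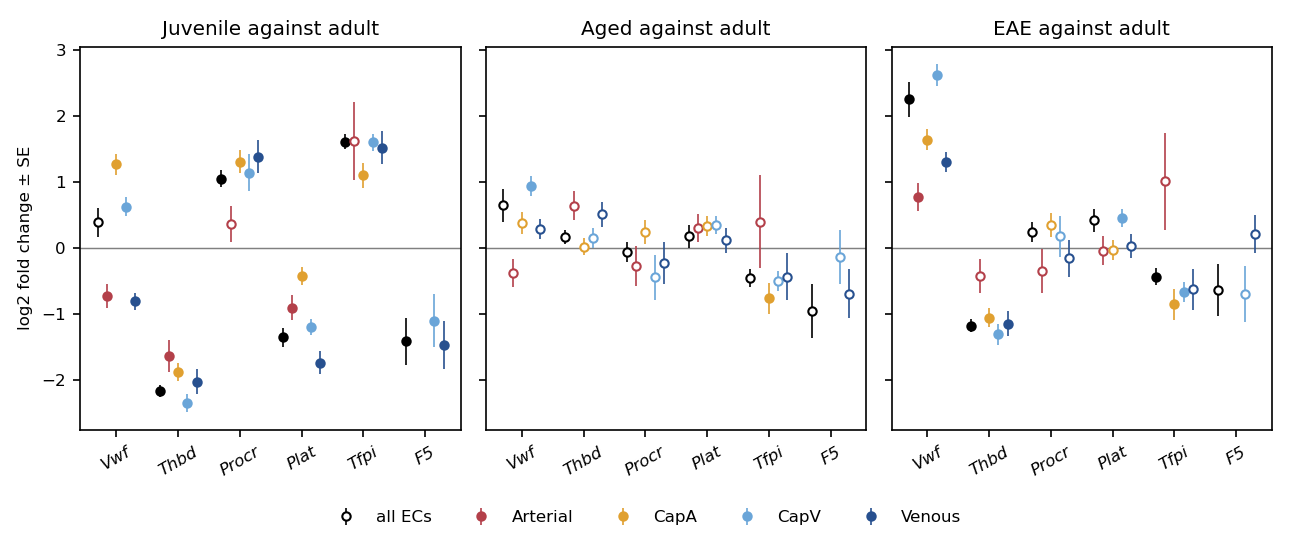
Log2 fold changes (± SE) of 6 genes against adult libraries in all ECs and in 4 zones, with filled points for genes called at an adjusted p of 0.05 and open points for the others. In EAE the Vwf points lie between 0.77 and 2.62 and the Thbd points below 0, and in juvenile libraries the Vwf points of capillary and of arterial and venous ECs lie on opposite sides of 0.

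Outside ECs, the genes that belong to other cells also differed between conditions. F3 in astrocytes stood at 1222, 1076 and 988 CPM in adult, 2003 and 1582 CPM in EAE (0.66 ± 0.18, adjusted p = 0.0381) and 400.5 to 428 CPM in juvenile libraries (-1.65 ± 0.15, adjusted p = 5.51e-10). In astrocytes 1 of 4 members was called in EAE, against 2.37% of all genes, and 2 of 4, F3 and Plat, in juvenile libraries, against 13.8%. Astrocyte Plat was higher in juvenile libraries (0.97 ± 0.29, adjusted p = 0.0221), the opposite direction to ECs and mural cells. Adult 2 and Adult 3 held 20 and 18 astrocytes, and choroid plexus markers in astrocytes summed to 68910, 35440 and 55240 CPM in adult, 16600 and 7824 CPM in EAE and 7650 to 21640 CPM in juvenile libraries; their part was not tested. F3 in fibroblasts stood at 1827, 1205 and 966 CPM in adult and 1251 and 613 CPM in EAE libraries and did not pass (-0.61 ± 0.46, adjusted p = 0.531). Plau in PVMs stood at 89.8, 68.3 and 79.0 CPM in adult and 31.8 and 31.2 CPM in EAE libraries (-1.17 ± 0.24, adjusted p = 0.000818), and in microglia at 78.4, 59.7 and 69.9 CPM in adult and 11.6 to 31.5 CPM in juvenile libraries (-1.75 ± 0.36, adjusted p = 0.00754). F5 in choroid plexus epithelium stood at 257, 206 and 203 CPM in adult and 87.6 to 109 CPM in juvenile libraries (-1.36 ± 0.10, adjusted p = 1.7e-09).

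Thbd in fibroblasts, where its level was highest, stood at 814, 515 and 638 CPM in adult and 222 and 248 CPM in EAE libraries (-1.51 ± 0.31, adjusted p = 0.0363), from 18 to 23 cells per library. This was 1 of 4 members, against 3.35% of all genes. Mural Procr was higher in juvenile libraries, with 85.5 to 118 CPM against 14.9 to 54.3 CPM in adult ones (1.64 ± 0.33, adjusted p = 0.00197), and mural Plat lower (-1.30 ± 0.28, adjusted p = 0.00479), both in the direction of ECs. EC markers summed to 491 to 932 CPM in juvenile and 2383 to 2862 CPM in adult mural cells. Of 5 members tested in mural cells 3 were called in the juvenile fit, against 25.9% of all genes, and 1 in the EAE fit, against 4.52%, namely Vwf (2.75 ± 0.62, adjusted p = 0.0209).

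Mural Vwf was accompanied by EC markers, which summed to 5840 and 7103 CPM in EAE and 2383 to 2862 CPM in adult mural cells. In microglia, PVMs and choroid plexus epithelium each call of Vwf, Thbd and Plat was lower than in adult libraries, and EC markers were lower too, with 1498 to 1781 CPM in adult, 610 to 653 CPM in EAE and 327 to 387 CPM in juvenile microglia. Vwf in EAE was not called in these types. It stood at 16.8 and 16.0 CPM in EAE and 8.07 to 13.98 CPM in adult microglia. In ECs themselves Vwf was higher in EAE, with 712 and 697 CPM against 133 to 201 CPM in adult libraries. For F5 in microglia, choroid plexus markers summed to 56730 CPM in Adult 1 and 5570 to 23770 CPM in the other libraries. The part of these markers in the results was not tested. The calls there were 2 of 8 members in microglia of EAE (25.9% of all genes) and 5 of 8 of juveniles (24.9%), 2 of 6 in PVMs of EAE (20.8%) and 2 of 6 of juveniles (9.68%), and 3 of 7 in choroid plexus epithelium of EAE (32.9%) and 4 of 7 of juveniles (57.0%). Among monocytes and macrophages, neurons, T and NK cells and oligodendrocytes, where 1 or 2 members passed the filter, edgeR called 0 in EAE (28.0%, 0.482% and 13.7% of all genes in the first 3) and 0 in juvenile libraries (1.88%, 3.80%, 2.36% and 39.3%). At an unadjusted p under 0.05 there were 1 in EAE (Vwf) and 2 in juvenile libraries (Vwf and Plat), all in T and NK cells. In aged libraries edgeR called 0 of 40 members tested over 10 other cell types, with 8 under an unadjusted p of 0.05. The share of all genes called there was 3.51% in PVMs, 2.15% in microglia, 1.85% in monocytes and macrophages, 1.55% in choroid plexus epithelium, 0.813% in T and NK cells, 0.599% in astrocytes, 0.249% in oligodendrocytes, 0.0315% in mural cells, 0.0289% in fibroblasts and 0% in neurons.

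The rest of the pathway was read from a list of 46 other genes of coagulation, fibrinolysis and their receptors, of which 40 were in the files and 24 passed the filter in ECs. In EAE 5 were higher and 5 lower, in aged ECs 2 and 1, and in juvenile ECs 7 and 7, where 27.7%, 5.57% and 43.3% of all genes were called. Their median log2 fold change was -0.04, -0.01 and 0.05, against 0.01, 0.00 and -0.04 for all genes and -0.43, -0.06 and -0.69 for the 7 members tested. F12, Fga and Plg, made by the liver, had no UMI in ECs. Other clotting factor genes had some over all ECs, among them F13a1 with 307 UMIs, F2 with 147, F10 with 113, F7 with 28 and F9 with 7.

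Of the plasminogen system, of which 7 genes were tested, Plaur, Anxa2 and S100a10 were among those that rose in EAE. Plaur, the urokinase receptor, went from 117, 47.5 and 54.5 CPM in adult to 250.1 and 256 CPM in EAE ECs (1.83 ± 0.31, adjusted p = 0.00353). Anxa2 (0.83 ± 0.10, adjusted p = 0.000146) and S100a10 (0.77 ± 0.15, adjusted p = 0.00324), which together form a plasminogen receptor, rose too. Markers of monocytes and macrophages summed to 112 and 95.3 CPM in EAE and 21.3 to 55.9 CPM in adult ECs, and those of neutrophils to 190 and 209 CPM against 34.3 to 42.4 CPM, with a higher mean for all 6 genes of each list. Their part in these results was not tested. Of 5 anticoagulant genes tested 3 fell, against 27.7% of all genes called in either direction: Entpd1, an ectonucleotidase (-0.60 ± 0.13), Anxa5, a phosphatidylserine binder (-0.47 ± 0.13), and Pros1, the cofactor protein S (-0.39 ± 0.11). Gas6, a relative of protein S, fell by 1.01 on the log2 scale (-1.01 ± 0.12, adjusted p = 6.97e-05).

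In aged ECs, where neutrophil markers summed to 199.6 and 260 CPM, S100a10 (1.44 ± 0.15) and Anxa2 (1.05 ± 0.11) rose and Serpine2, an inhibitor of thrombin and of plasminogen activators, fell (-1.96 ± 0.21, adjusted p = 0.000855). In juvenile ECs Serpine2 (1.08 ± 0.17) and Anxa2 (0.54 ± 0.09) were higher, and S100a10 (-1.37 ± 0.14), Gas6 (-1.21 ± 0.10), Ggcx (-0.69 ± 0.13) and Pros1 (-0.58 ± 0.09) lower. Ggcx encodes the carboxylase that activates vitamin K-dependent proteins such as protein S. A list of 7 platelet genes summed to 33.8 to 53.2 CPM in adult and 15.8 and 23.2 CPM in EAE ECs. Pf4 and Itga2b made up most of that sum, and 3 of the 7 genes had a higher mean in EAE, such as Ppbp at 1.71 and 3.67 CPM against 0 to 0.27 CPM. The part of platelet transcripts in the Vwf level was not tested.

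Over the 16 combinations of 4 zones and 4 conditions, the genes whose levels ran most nearly with each member were described by Pearson's r on log2(CPM + 1), among 6266 genes of at least 20 CPM. They were Itga3 (0.905), Casp4 (0.898) and Atp1b3 (0.893) for Vwf, Nck1 (0.937), Caskin2 (0.914) and Eif4a2 (0.907) for Thbd and Trip6 (0.90), Impad1 (0.871) and Tead2 (0.869) for Procr. For Plat they were Nkiras1 (0.964), Sec62 (0.958) and Osbpl1a (0.947) and for Tfpi Yes1 (0.972), Mrp63 (0.921) and Timm10b (0.917). The 16 values share libraries and differences in depth, so these are descriptions of likeness without a test.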

How the data were processed

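Droplet libraries of cortical cells (10x 3′ v2) were sequenced in 11 samples. The authors deposited raw UMI counts per gene and cell, made with bcl2fastq 2.19.1.403, UMI-tools 0.5.3, STAR 2.5.3a and featureCounts 1.6.1 on mm10 per the submitters' processing notes. The members and lists were chosen with earlier results of these data known.

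Cells with more than 500 and fewer than 6000 detected genes and under 25% mitochondrial counts were kept and clustered with Seurat 5.3.0 (R 4.3.3) at a resolution of 0.5, without the members and listed coagulation genes. Clusters were named from markers, with limits set after the clusters were seen. Scrublet (scanpy 1.11.5) marked 818 cells (1.62%) as doublets, which were kept. Counts were summed per library and population with at least 10 cells. CPM was the count over the population's total, and means ± SD were taken over units. edgeR 4.0.16 (quasi-likelihood test, TMM, filterByExpr) was fitted over all genes with Benjamini-Hochberg adjustment, and a gene was called at an adjusted p under 0.05. Zone tests and tests between cell types carried the unit as a block. Log2 fold changes are given with the model's SE.

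Every member was named. Of the other coagulation genes, those called in all ECs with at least 50 CPM in the higher condition and libraries that do not overlap were named, at most 4 per direction and comparison by size of change, and for likeness the 3 genes of highest r per member, with a minimum mean of 20 CPM. Shares of cells were thinned to 1500 UMIs per cell. Alternatives were DESeq2 1.42.0, no filter on low counts, each library left out, cells under 10% mitochondrial counts, doublets removed, other units, a replicate block, a resolution of 0.9 and zones by marker score. The fits were tested on simulated counts with an assumed spread, in which 200 genes were changed by a known amount. They recovered 56% of these genes for EAE in all ECs and in CapV. For juvenile libraries they recovered 77.5% in all ECs and 31% in venous ECs. False calls were 3.12% to 5.88% of calls. A gene that was not called may therefore still differ. Same-numbered replicates deviated together with correlations of -0.16 to 0.22 over 6174 genes, so numbers were not taken as pairs.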

Additional observations from a re-analysis of the deposited data

Results flagged for a closer look

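In groups of 4 juvenile libraries, 2 values lay far from the rest, among 33 such groups looked at, and chance marks about 1 group in 20. Procr in arterial ECs stood at 171.7 CPM in Juvenile 4 and at 103 to 112.7 CPM in the other 3 libraries. Thbd in CapA ECs stood at 97.61 CPM in Juvenile 4 and at 74.24 to 77.11 CPM in the others.

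For Vwf and Plat, the change against adult libraries differed between venous and capillary ECs by a test of that difference. It was -0.87 for Vwf and -0.39 for Plat in EAE and -1.87 for Vwf and -1.18 for Plat in juvenile libraries, each on the log2 scale as venous minus capillary.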

How the results depend on the processing

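Of 60 called values of single genes, 39 kept their direction and call under every alternative run, and over 1158 recomputed values 1078 kept them, 75 lost the call and 5 turned. The tally covers ECs against the mean of other types and conditions in all ECs and within zones. It also covers arterial or venous against capillary ECs and venous minus capillary changes. Calls against single cell types, venous against arterial ECs, CapV against CapA ECs and conditions within other cell types were not in it. Plat in arterial against capillary ECs turned to 0.29 at a resolution of 0.9 and 0.34 with cells named by marker score, which also turned the venous minus capillary change of Plat in EAE to 0.08 and the juvenile Vwf difference to 1.02 in arterial and 0.70 in venous ECs; the cause was not tested. Of 75 values not called, 19 were called under some alternative.

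The 5 calls between venous and capillary ECs became 3 without the block of units and 3 with marker scores. The 10 calls of EAE within zones, of which 8 were outside venous ECs, became 4 with near-identical pairs summed, and 5 to 10 when 1 library was left out. With pairs summed and without EAE 1 or EAE 2 the venous zone could not be fitted, so these counts cover 3 zones. The 2 calls of the EAE change in venous minus capillary ECs became 1 with DESeq2, no filter, 11 separate units, pairs summed, a resolution of 0.9 or marker scores, and 1 to 2 with a library left out. For aged ECs the 0 calls became 1 with 11 units or marker scores and 0 to 2 with a library left out, 2 being reached without Adult 1. Within aged zones the 2 calls became 1 with DESeq2, pairs summed or a resolution of 0.9, 7 with 11 units and 1 to 5 with a library left out, 5 without Adult 1; the counts with pairs summed and without Aged 1 or Aged 2 cover 3 zones. The 0 calls of the aged venous minus capillary change became 1 with 11 units, a resolution of 0.9 or marker scores and 0 to 2 with a library left out. The 2 juvenile ones became 0 with marker scores. The 26 calls in other cell types became 40 with no filter and 45 with marker scores, and 19 to 30 with a library left out.

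With the replicate number as a block, the calls in all ECs were 4 in EAE, with Plat added (0.54, adjusted p = 0.0307, edgeR), 0 in aged and 5 in juvenile ECs. Depth limits F8 and Plau in ECs most, where 3 UMIs equal 0.270 to 0.822 CPM. The adult venous zone rests on 1 unit.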

Other observations

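In the cluster led by Angpt2 and Lcn2, which carried markers of tip and of inflammatory ECs, Plat stood at 1637 and 1575 CPM in EAE, 1545, 753 and 559 CPM in adult, 932 and 822 CPM in aged and 251 to 293 CPM in juvenile libraries. Vwf stood there at 525 and 555 CPM in EAE and 43.0 to 132 CPM in adult libraries, and Thbd at 69.0 and 70.5 CPM in EAE. Adult 1 gave the highest adult Plat value, as it did in all ECs. In the cluster named mitotic Plat stood at 662 and 708 CPM in aged, 99.6 to 157 CPM in juvenile libraries and 1165 CPM in its 10 cells of EAE 1. That cluster held 7.02% and 5.95% of aged, 5.05% to 11.0% of juvenile, 0.142% to 0.274% of EAE and 0% to 0.148% of adult ECs, and libraries with under 10 cells in it gave no value. Its name came from markers summed over all conditions, and markers of dividing cells were not looked at in its aged cells alone. The paper describes mitotic ECs as largely absent in adult and aged mice. Fenestrated ECs were 42 cells, of which the libraries Juvenile 1 and Juvenile 2 held at least 10 each. In these 2 libraries Thbd stood at 376 and 289 CPM and Vwf at 0 and 17 CPM. Over all 42 cells there were 76 Thbd and 16 Vwf UMIs, and most of the Vwf UMIs lay in the libraries that gave no value. The low Vwf level therefore holds for Juvenile 1 and Juvenile 2 only. These values are descriptions without a test.

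Among the other genes of the pathway, 10 of 18 tested were higher and 3 lower in arterial than in capillary ECs, where 35.8% of all genes were called, and 4 were higher and 3 lower in venous ECs, near the 38.0% of all genes called there. Of these, 4 were picked after their values were seen. F2rl1, a protease-activated receptor, was higher in arterial ECs by 7.65 on the log2 scale, F2r, the thrombin receptor, by 2.85 and Entpd1 by 1.26. Selp, which encodes P-selectin, was higher in venous ECs by 6.27.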
